A study of Bos taurus with 16 samples.

Results

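The genes described here are those of the proteasome, the barrel-shaped protease that degrades ubiquitin-tagged proteins in every nucleated cell. They were taken as all symbols of the deposited coverage table that begin with PSMA to PSMG and a digit. This gave 46 of 11995 genes with an exon level. One of them, PSMC3IP, only shares the start of its symbol: it encodes a factor of meiotic recombination and is given apart. Of the other 45, 44 passed the filter on low values (at least 0.5 in at least 4 libraries), as did 9443 genes in all, and the gene that did not pass is PSMB11. PSMA8, PSME3 and PSMG4 were not analysed here. The members were chosen by name, not by any measured value.

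RNA was sequenced from the rumen papillae, the leaf-like projections that line the first stomach of cattle, of 16 crossbred steers, with 1 library per animal. The 4 groups hold 4 animals each and cross body weight gain (high or low) with dry matter intake (high or low), and a group is written below as gain/intake, for example high gain/low intake. All groups share the breed label (crossbred), an age of 344 ± 48 days and a ration based on corn and distillers grains, and none was treated. Animals were sorted into groups by phenotype, so gain and intake are traits of the steers and not an intervention, and the papillae are a bulk tissue in which fewer cells of a type and less RNA per cell cannot be told apart. Libraries are named below by group and replicate, and the replicate number only names an animal.

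The proteasome consists of a 20S core, made of rings of alpha (PSMA) and beta (PSMB) subunits, and of caps that bind it. The 19S cap recognises and unfolds ubiquitinated proteins with a base of ATPases (PSMC) and non-ATPase subunits (PSMD). PSMB5, PSMB6 and PSMB7 carry the constitutive protease sites. Under interferon, PSMB8, PSMB9 and PSMB10 take their places in the immunoproteasome, which favours peptides for presentation on MHC class I. PSME1 and PSME2 form the interferon-inducible PA28 cap, PSME4 encodes the PA200 cap, PSMF1 encodes the inhibitor PI31, and PSMG1 to PSMG3 are chaperones of core assembly. The rumen epithelium is a stratified, quickly renewed epithelium exposed to dense microbial contents.

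A gene's level is the mean read coverage per base, as deposited, of whichever of its exon regions was highest on average in the 16 libraries. The estimated depth was 11.9 to 21.2 M reads per library, and 1 read over a region of its own length is worth 0.56 to 1.00. The tissue label was checked against markers: 11 of 12 epithelial markers had a region, with a summed level of 1472 to 5075 per library, against 42.9 to 93.7 for 13 leukocyte markers, and no measured marker of any list was at 0 in all libraries. In 5 libraries, coverage of first exons relative to the other exons of the same gene was low (median log2 ratio over 1012 genes of -2.57 to -1.77, against -1.14 to -0.30 in the other 11). These are replicate 4 of high gain/high intake, replicates 2, 3 and 4 of high gain/low intake, and replicate 3 of low gain/low intake. High gain thus holds 4 of the 5, low intake also holds 4 of the 5, and without them high gain/low intake keeps 1 library. Results are therefore given with and without these 5 libraries. Leaving them out does not level the ratio between the gain groups. In the 11 it was -1.14 to -0.63 at high gain (4 libraries) and -0.64 to -0.30 at low gain (7 libraries).

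Proteasome genes were expressed well above the typical gene. The median of the 44 member means was 12.9, against 4.29 over all genes tested, and 40 of 44 lay above that median. The members also varied less than the typical gene between animals in the 11 libraries. Their median SD of log2 level was 0.31, against 0.40 over all genes, and 32 of 44 were under the latter. The genes were not matched for level in this comparison, and the part of the higher level in it was not tested. The highest means belonged to PSMB7 (56.1 ± 10.1, SD, n = 16), a constitutive protease subunit, to PSMB1 (50.6 ± 8.62), a structural beta subunit, and to PSMD14 (37.2 ± 13.3), the deubiquitinase of the lid. The lowest were PSMB11 (0.064), PSMD13 (1.37 ± 0.82), a lid subunit, and PSMB9 (1.55 ± 1.24). PSMB11, the thymus-specific protease subunit, was listed at 0 in 14 libraries and at 0.53 and 0.50 in the other two, about 1 read each.

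Subunits of one complex, which occur in equal number in the particle, did not have equal levels. In the alpha ring, means ran from 3.87 for PSMA2 to 28.6 for PSMA3, and in the ATPase ring from 4.98 for PSMC5 to 31.0 for PSMC6. Of the 44 members, 32 rest on a region of 1 exon and 12 on a region that spans several exons with the introns between them, which lowers the mean per base of those 12. PSMC5 and PSMD13 rest on a first exon or a single exon, because regions that hold exons of several genes were left out and parts of both genes lie in such regions, with SMARCD2 and COX8B. The left-out region shared by PSMD13 and COX8B was at 9.66 to 18.37 in the 11 libraries, so the low mean of PSMD13 covers only part of the gene. The ranks of members by mean given above are therefore ranks of regions. Levels of different members are compared further only for the catalytic pairs below, where the same limit applies to the size of the folds. The steadiest members over all 16 libraries were PSMA7 (SD of log2 level 0.17), an alpha subunit, PSMD7 (0.22), a lid subunit, and PSME1 (0.23). The most variable were PSMD9 (2.71), an assembly chaperone of the base, PSMF1 (2.54) and PSMB10 (2.48), and in these the 5 libraries set apart above were low, as the map of levels shows.

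**Figure D1:**
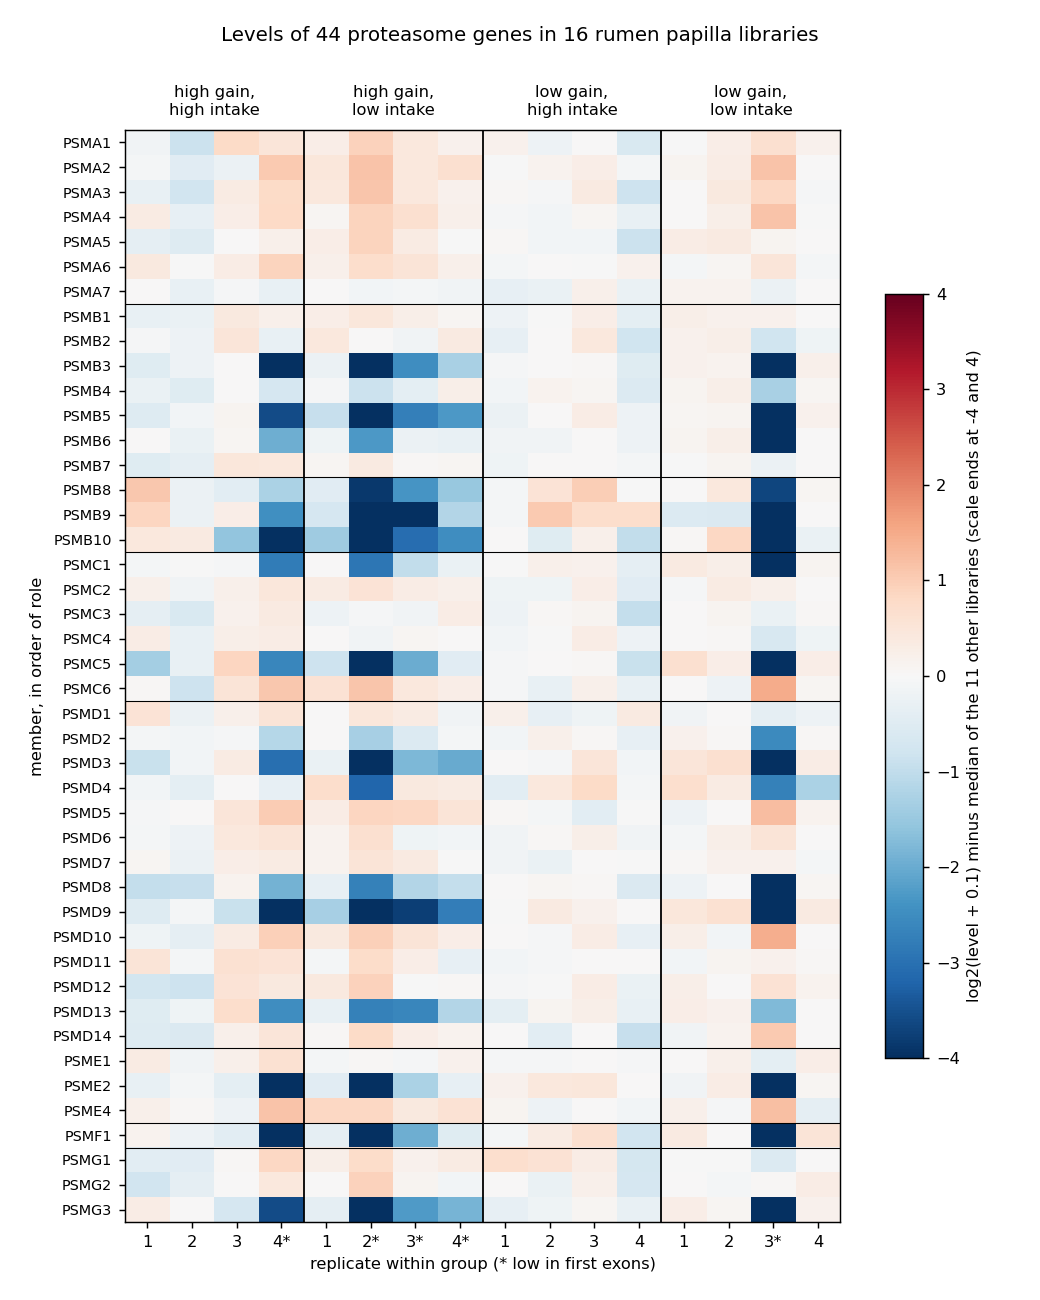
Each row is 1 of 44 proteasome genes in order of role and each column 1 library, grouped by gain and intake; colour gives log2(level + 0.1) minus the median of the 11 libraries that are not low in first exons, cut at -4 and 4. In the columns marked with an asterisk, 15 members are at or under 0.5 times the mean of the other libraries (PSMB5, PSMD9 and PSMG3 among them), while most of the alpha ring is above it.

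The split of the libraries ran through the complex unevenly. Set against the mean of the other 11, the mean of the 5 libraries was at most 0.5-fold for 15 members, between 0.5- and 1-fold for 6 and above 1-fold for 23. Over all genes tested, 32% were at most 0.5-fold and 50.2% above 1-fold, so the members as a whole lay near the background. By role, 6 of 7 alpha subunits were above 1-fold and none was at most 0.5-fold, while all 3 inducible catalytic subunits were at most 0.5-fold. For 10 members every one of the 5 libraries lay below every one of the 11: PSMB3, PSMB5, PSMB8, PSMB9, PSMB10, PSMD3, PSMD8, PSMD9, PSMD13 and PSMG3, where 19.5% of all genes did so. For PSMD5, a chaperone of the base, every one of the 5 lay above (16.0 to 26.3 against 8.41 to 15.8), as for 3.16% of all genes. These libraries were told apart by coverage and not by a label, so the counts are a description with no test.

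Along the genes, low coverage in the 5 libraries was found outside first exons too. PSMD9 was low in exons 1 to 4: exon 3 (chromosome 17, 55680511 to 55680795, UMD3.1) had a mean of 0.39 in the 5 libraries and 9.85 in the other 11, whereas the region of exons 5 and 6 at its 3' end had 3.85 and 3.58. PSMB5 had 3.01 against 30.3 in exon 1 (chromosome 10, 21658480 to 21658746) and 10.4 against 13.0 over exons 2 and 3. PSMC3, an ATPase of the base, went the other way. Its exon 3 (chromosome 15, 78457171 to 78457320) held 28.7 against 25.2, but exon 12, the last, held 0.40 against 12.04, with no overlap between the libraries (0 to 1.30 against 6.54 to 15.4). PSMB10 was low in every exon from 5 to 8, with 0.41 against 6.88 in exon 7. PSMA6, an alpha subunit, was lower only in exon 1 (3.92 against 6.22) and higher in each later region, with 14.2 against 10.03 in exon 7. With the region of the last exon as the level, 11 members were at most 0.5-fold and 22 above 1-fold. Of the 15 listed first, 8 were still at most 0.5-fold. Both readings use the same region for 20 of the 44 members, PSMB8, PSMD13 and PSMG3 among them. For these 20 the last exon is no second look. For PSMD9, PSMB5 and PSMC3 the size of the difference between these libraries therefore depends on the exon read.

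**Figure D2:**
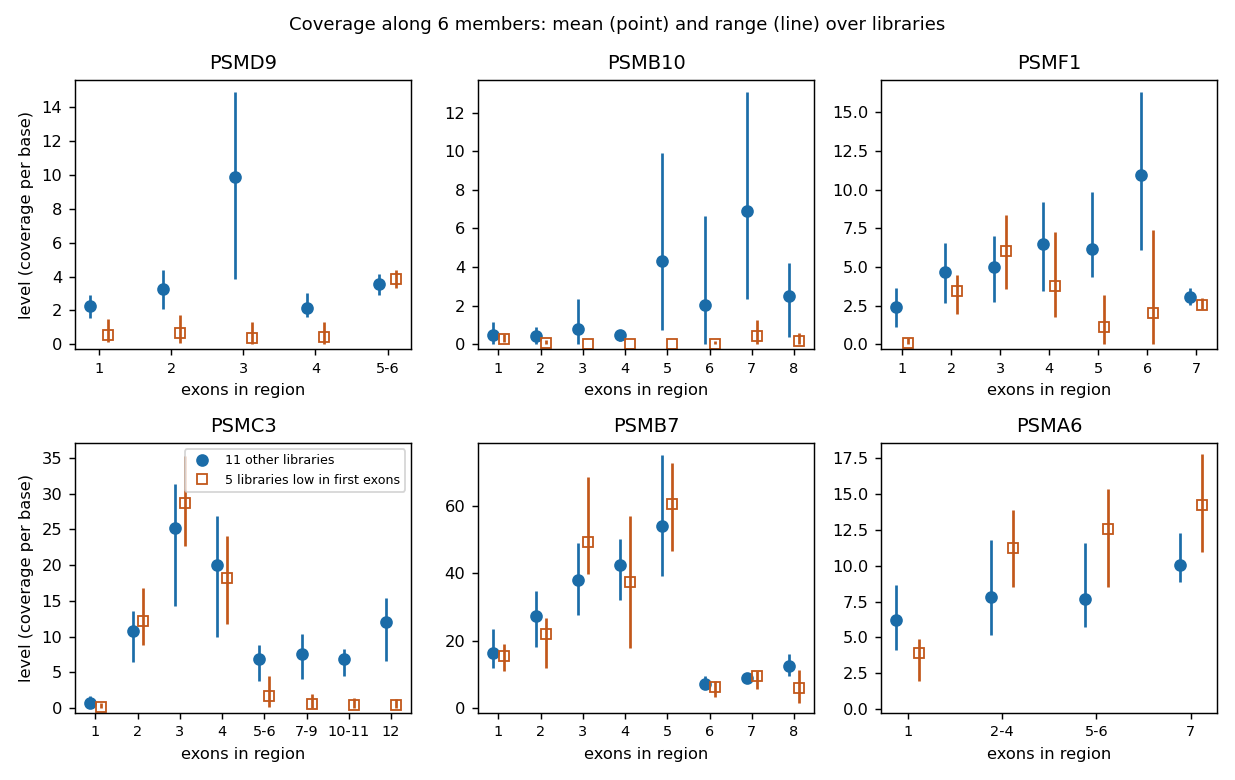
Coverage per base (vertical axis, a separate linear scale per panel) in each exon region of 6 members, as mean and range over the 5 libraries low in first exons (squares) and the other 11 (circles). PSMD9 separates in exons 1 to 4 and meets at exons 5 and 6, PSMC3 meets in exons 2 to 4 and separates in exon 12 (0.40 against 12.04), and PSMB10 is low from exon 5 to exon 8.

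The first question of the design was whether papillae of steers with high gain differ from those with low gain. No proteasome gene passed the threshold (limma, Benjamini-Hochberg over 9443 genes, adjusted p of at least 0.847 for every member), and the share of all genes called was 0%. Of the 44 members, 24 had a higher and 20 a lower estimate, with a median of 0.08 log2 units (-0.04 over all genes, of which 46.1% had a higher estimate). With libraries rescaled to the same median, 30 were higher and 14 lower (61.2% of all genes higher). At an unadjusted p under 0.05, 1 member was higher (0.974% of all genes) and 0 were lower (4.31%). By role, 6 of 7 alpha subunits and 4 of 6 ATPases had higher estimates, and all 3 inducible catalytic subunits had lower ones.

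The member with the smallest p for gain was PSMA6. Its levels were 12.30, 9.30, 11.70 and 17.77 in high gain/high intake and 10.82, 15.40, 13.62 and 10.94 in high gain/low intake. They were 8.99, 9.46, 9.38 and 10.58 in low gain/high intake and 8.86, 10.03, 13.32 and 8.89 in low gain/low intake. The groups overlap, 7 of 8 high-gain libraries lie above the low-gain median, and the highest low-gain value (13.32) comes from 1 of the 5 libraries. The estimate was 0.34 ± 0.16 (SE) log2 units (limma, adjusted p = 0.847), and 0.21 ± 0.15 without the 5 libraries (adjusted p = 0.624).

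PSMD9 had the most negative estimate for gain of all members. In high gain/high intake it was at 6.73, 9.23, 5.24 and 0, and in high gain/low intake at 3.84, 0, 0.62 and 1.34. In low gain/high intake it was at 9.64, 12.37, 10.85 and 9.71, and in low gain/low intake at 13.40, 14.87, 0 and 12.47. All 8 high-gain libraries lie below the low-gain median of 11.6, and the single low-gain library among them, listed at 0, is 1 of the 5. The estimate was -2.23 ± 1.21 (limma, adjusted p = 0.847). Without the 5 libraries it was -1.20 ± 0.19 with an adjusted p of 0.0273, the only member among 61 genes past the threshold, all of them lower with high gain (0.662% of 9211 genes). In that fit high gain/low intake is 1 library, whose spread is taken from the other groups. The first-exon ratio still differs by gain among those 11 libraries, and its part in this estimate was not tested. In the region of exons 5 and 6 the same contrast over all libraries gave 0.08 ± 0.13.

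PSMC2, an ATPase of the base, had an estimate of 0.26 ± 0.14 for gain, with means of 13.1 ± 1.78 (SD, n = 8) at high and 10.9 ± 1.92 at low gain. PSMD5 had 0.41 ± 0.22, with 16.3 ± 4.35 against 12.7 ± 5.66. PSMD13 (-0.94 ± 0.49) and PSMB9 (-1.11 ± 0.74) were the other members named by p among the lower estimates. Each of these had an adjusted p of 0.847, and their groups overlap. With the first-exon ratio of each library added to the model as a covariate, the picture for gain turned: 823 genes passed, 713 of them higher (7.55%) and 110 lower (1.16%). The members past the threshold were then 6, all higher: PSMB3 (1.37), PSMB5 (1.34), PSMB6 (1.20), PSMC1 (1.12), PSMD2 (0.70) and PSMF1 (1.68). Estimates of 30 of the 44 members changed sign with the covariate, PSMB8 (0.34), PSMB10 (1.02), PSME2 (1.40) and PSMG3 (0.75) among them. None of the 6 passed with the 5 libraries left out, and PSMB5 then had an estimate of -0.60.

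**Figure D3:**
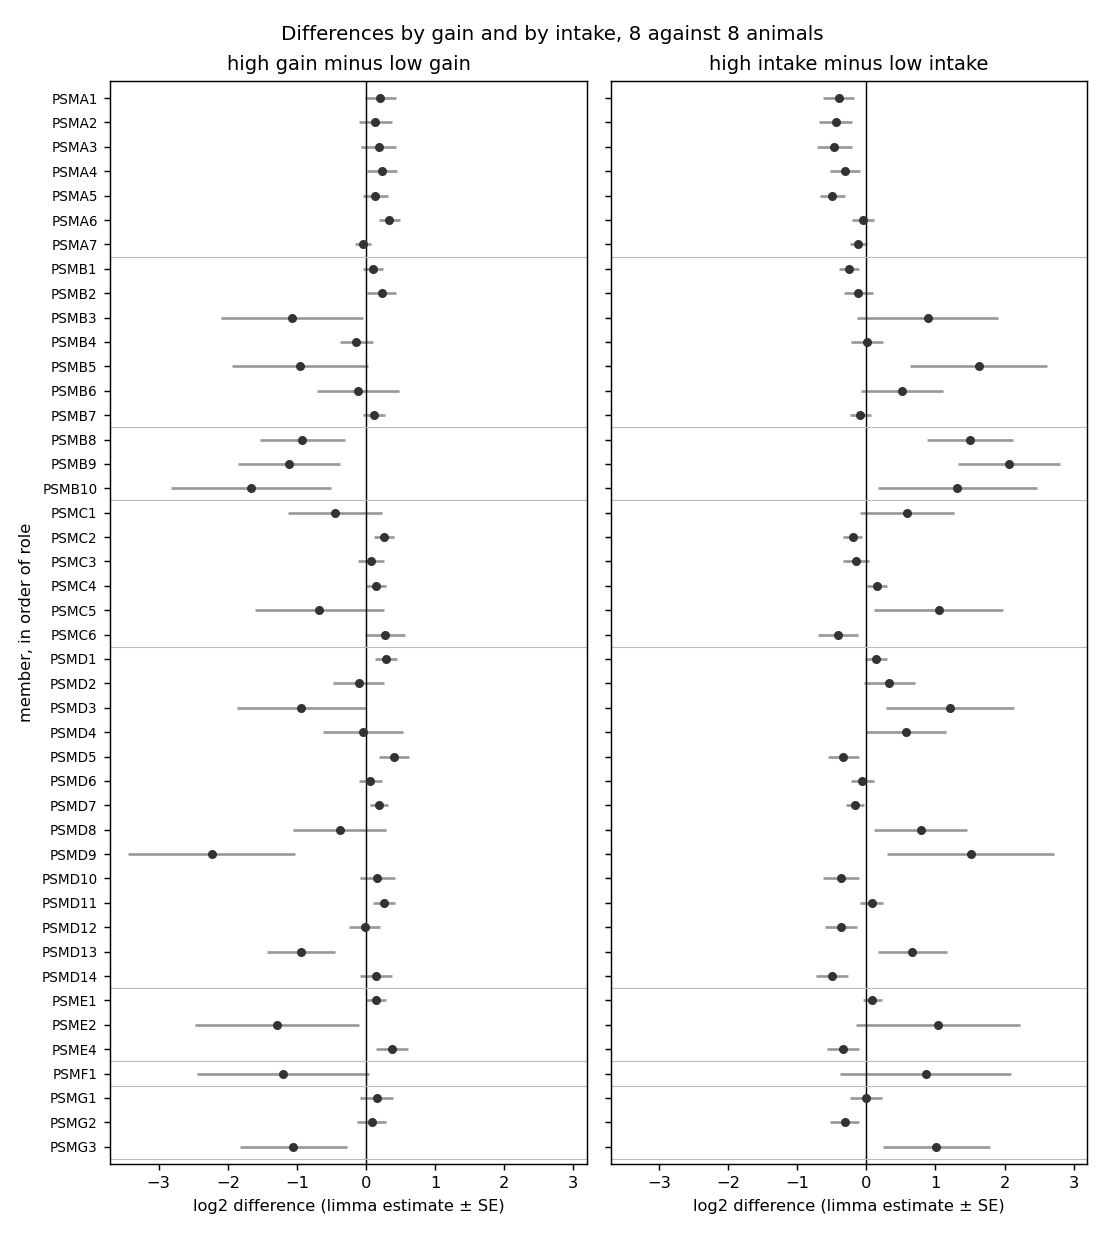
Points are limma estimates on the log2(level + 0.1) scale and lines their SE for each of 44 members in order of role, for high minus low gain (left) and high minus low intake (right), 8 animals against 8. No member passed the threshold; all 7 alpha subunits lie below 0 for intake (median -0.40) and the 3 inducible subunits lie above 0 (median 1.497), and SEs are wide where the 5 libraries stand apart.

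The next question was whether high and low intake differ. Again no member passed (adjusted p of at least 0.528), and 0% of all genes were called. Estimates were higher for 22 and lower for 22 members, with a median of 0.00 (-0.01 over all genes, 49.6% of them higher). At an unadjusted p under 0.05, 2 members were higher (2.47% of all genes) and 2 lower (5.81%). The alpha ring had 7 lower and 0 higher estimates with high intake (median -0.40), and the inducible catalytic subunits 3 higher and 0 lower (median 1.497). In the 5 libraries, 4 of which are from low-intake animals, alpha subunits were likewise high and inducible subunits low, and members are given without them below.

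Among the alpha subunits PSMA5 had the smallest p for intake. It was at 20.55, 18.68, 26.85 and 30.41 in high gain/high intake and at 27.64, 24.62, 24.37 and 14.63 in low gain/high intake. With low intake it was at 31.96, 49.74, 33.39 and 26.36 at high gain and at 32.32, 34.40, 28.78 and 26.56 at low gain. All 8 high-intake libraries lie below the low-intake median of 32.1, although the ranges overlap. The estimate was -0.49 ± 0.18 (limma, adjusted p = 0.528), and -0.51 ± 0.21 without the 5 libraries (adjusted p = 0.484). PSMD14 had an estimate of -0.50 ± 0.23, with means of 31.0 ± 9.93 (SD, n = 8) and 43.4 ± 13.8, and -0.34 ± 0.24 without the 5 libraries. PSMA2 had -0.45 ± 0.24. Without the 5 libraries 32 of 44 members had a lower estimate with high intake, where 34.1% of all genes had a higher one.

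The catalytic subunits were compared in pairs. In each pair the inducible gene was at the lower level. Over the 11 libraries, PSMB8 lay 6.92-fold below PSMB5, PSMB9 10.7-fold below PSMB6 and PSMB10 8.62-fold below PSMB7, as means of log2 ratios turned back to folds. From the regions of the last exon the folds were 3.05, 16.1 and 5.28, so their size depends on the exon read. The inducible gene was the lower one in both readings. PSMB8 and PSMB6 have the same region in both, so in their pairs only the partner was read anew. The 2 genes of a pair were not matched for the kind of region. PSMB5 was at 22.35, 29.50, 34.36 and 2.56 in high gain/high intake and at 16.63, 1.38, 4.66 and 6.34 in high gain/low intake. In low gain/high intake it was at 27.36, 31.88, 39.50 and 27.74, and in low gain/low intake at 33.42, 34.71, 0.13 and 35.55. Every value under 7 is from 1 of the 5 libraries. PSMB6 was steadier: it ran from 18.95 to 26.96 in the 11 and was at 5.87, 4.59, 19.26, 18.78 and 1.22 in the 5. PSMB7 kept its level in them: it ran from 39.08 to 75.12 in the 11 and from 46.67 to 73.02 in the 5.

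PSMB8 (exon 6, chromosome 23, 7113298 to 7113642) was at 7.87, 3.12, 2.71 and 1.49 in high gain/high intake and at 3.49, 5.49, 7.46 and 3.68 in low gain/high intake. With low intake it was at 2.68, 0.16, 0.64 and 1.22 at high gain and at 3.69, 4.93, 0.20 and 3.94 at low gain. The ranges of high and low intake overlap, and the 4 lowest low-intake values are all from the 5 libraries. The intake estimate was 1.497 ± 0.62 (limma, adjusted p = 0.528), and 0.39 ± 0.34 without the 5 libraries (adjusted p = 0.688).

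PSMB9 (exon 4, chromosome 23, 7132044 to 7132177) was at 3.33, 1.51, 2.20 and 0.25 in high gain/high intake and at 1.69, 3.84, 2.98 and 2.99 in low gain/high intake. With low intake it was at 1.10, 0, 0 and 0.74 at high gain and at 1.21, 1.19, 0 and 1.81 at low gain. In the 11 libraries every high-intake value but 1.51 and 1.69 is above the highest low-intake value of 1.81. These levels rest on few reads, an estimated 3.8 to 14.1 in the 11 libraries and 0 to 2.8 in the 5. The intake estimate was 2.06 ± 0.74 (limma, adjusted p = 0.528), and 0.96 ± 0.31 without the 5 libraries (adjusted p = 0.410). PSMB10 (exon 7, chromosome 18, 35540641 to 35540824) was at 9.92, 9.37, 2.37 and 0 in high gain/high intake and at 7.33, 5.24, 8.49 and 3.69 in low gain/high intake. With low intake it was at 2.65, 0, 0.80 and 1.24 at high gain and at 7.52, 13.05, 0 and 6.04 at low gain. Its intake estimate was 1.32 ± 1.15, and 0.33 ± 0.44 without the 5 libraries, which hold the 5 lowest values.

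The ratio of an inducible subunit to its constitutive partner is measured within a library, as log2 of the ratio of (level + 0.1). Of 6 tests (3 ratios by gain and by intake), 1 passed. The log2 ratio of PSMB9 to PSMB6 was -3.17 ± 0.57 (SD, n = 8) with high intake and -4.71 ± 1.31 (n = 8) with low intake. PSMB9 was listed at 0 in 3 of the 8 low-intake libraries, where the ratio is set by the added 0.1 and by PSMB6, so the size of the difference rests on that constant. The difference was 1.54 (exact two-sided permutation test over 12870 arrangements, p = 0.00093, Benjamini-Hochberg adjusted p = 0.0056). All 8 high-intake libraries lie above the low-intake median. Without the 5 libraries the difference was 1.04, between 7 and 4 animals (exact permutation test over 330 arrangements, p = 0.0061, adjusted p = 0.0364). It depended on the regions read: from the region of the last exon the difference was 0.42 (adjusted p = 0.521, exact permutation test). In that reading only the region of PSMB9 changed, since that of PSMB6 is the same. From all exon regions the difference was 0.70 (adjusted p = 0.199). With 0.5 in place of 0.1 added to each value the difference was 0.79 (adjusted p = 0.291). The other 2 ratios did not pass for intake: PSMB8 to PSMB5 differed by -0.13 and PSMB10 to PSMB7 by 1.40 (adjusted p = 0.947 and 0.433, exact permutation tests).

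By gain, the ratio of PSMB9 to PSMB6 differed by -1.01 (adjusted p = 0.308, exact permutation test), from -4.44 ± 1.52 (SD, n = 8) with high gain and -3.44 ± 0.71 with low gain. Read from all exon regions the difference was -1.25 (adjusted p = 0.00653, exact permutation test) and from the last exon -1.38 (adjusted p = 0.0429, exact permutation test). From the region of highest mean and without the 5 libraries the difference was -0.06 (adjusted p = 0.918, exact permutation test). The readings from all exon regions and from the last exon were not tested without the 5 libraries. Markers of other cell types are given beside these results, by intake and then by gain. The summed level of 13 leukocyte markers was 73.0 ± 15.6 (SD, n = 8) with high intake (52.4 to 93.7) and 56.8 ± 13.3 with low intake (42.9 to 83.0), and the ranges overlap. It was 42.9 to 52.4 in the 5 libraries and 59.2 to 93.7 in the 11. Of 9 leukocyte markers tested, 6 had a higher and 3 a lower estimate with high intake (median 0.64). At an unadjusted p under 0.05, 2 were higher (2.47% of all genes) and 0 lower (5.81%). Of 7 stromal markers, 6 had a lower estimate with high intake (median -0.69), 5 at an unadjusted p under 0.05 (5.81% of all genes lower). Stromal sums ran from 202 to 417 in high-intake libraries and from 241 to 1116 in the others. Of 6 endothelial markers, 4 had a lower estimate with high intake, all 4 at an unadjusted p under 0.05 (5.81% of all genes lower). The median of the 6 was -0.52, with sums of 8.13 to 24.3 with high and 8.56 to 27.0 with low intake. For smooth muscle 4 of 6 markers and for epithelium 7 of 11 had a higher estimate. With high gain, all 7 stromal (median -0.46), 6 smooth muscle (-1.66) and 6 endothelial markers (-0.50) had lower estimates. At an unadjusted p under 0.05 were 2, 3 and 3 of them (4.31% of all genes lower). Endothelial sums were 8.13 to 17.8 with high and 18.0 to 27.0 with low gain, while sums of stroma and smooth muscle overlap. Leukocyte markers had 4 higher and 5 lower estimates with high gain, and epithelial markers 7 and 4. None of these markers passed after adjustment (limma). Leukocytes carry the immunoproteasome as a rule. The part of leukocytes, stroma, smooth muscle and endothelium in the results for intake and gain was not tested.

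**Figure D4:**
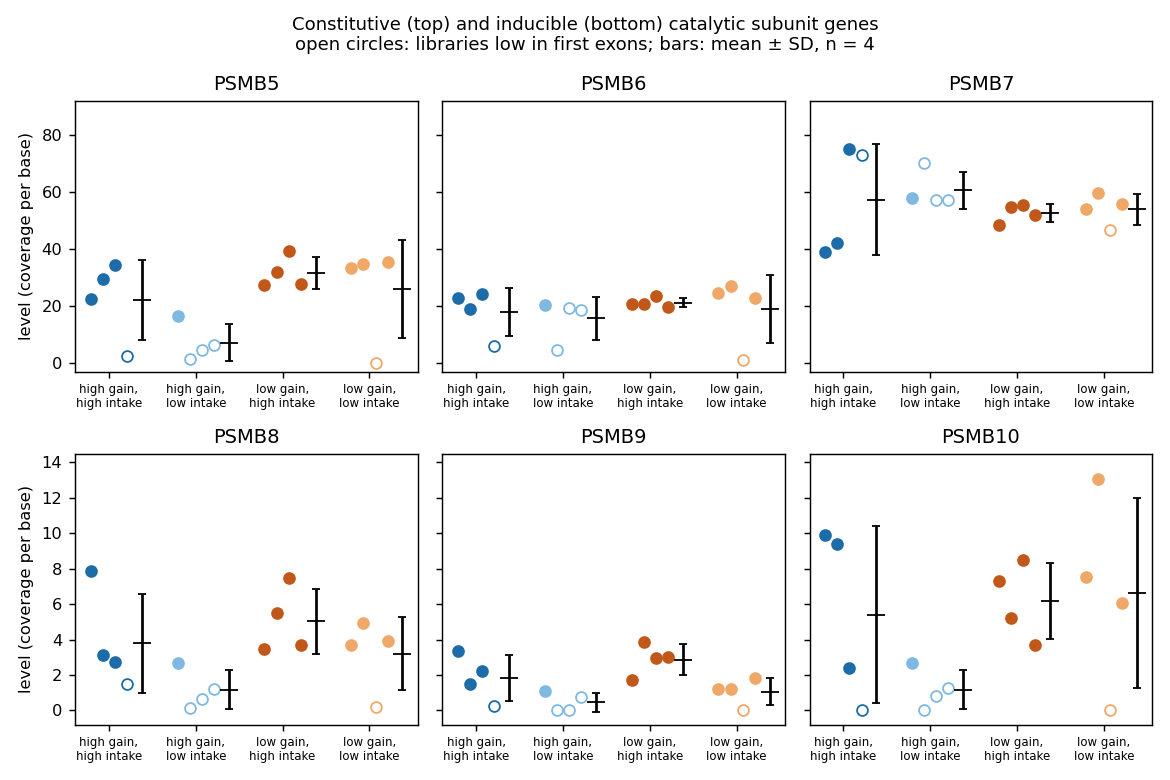
Levels (coverage per base, linear axes that differ between rows) of the 3 constitutive and 3 inducible catalytic subunit genes, 1 point per library by group, with mean ± SD (n = 4). Open circles are the 5 libraries low in first exons: they are the lowest for PSMB5, PSMB8, PSMB9 and PSMB10, while PSMB7 stays between 46.67 and 73.02 in them.

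**Figure D5:**
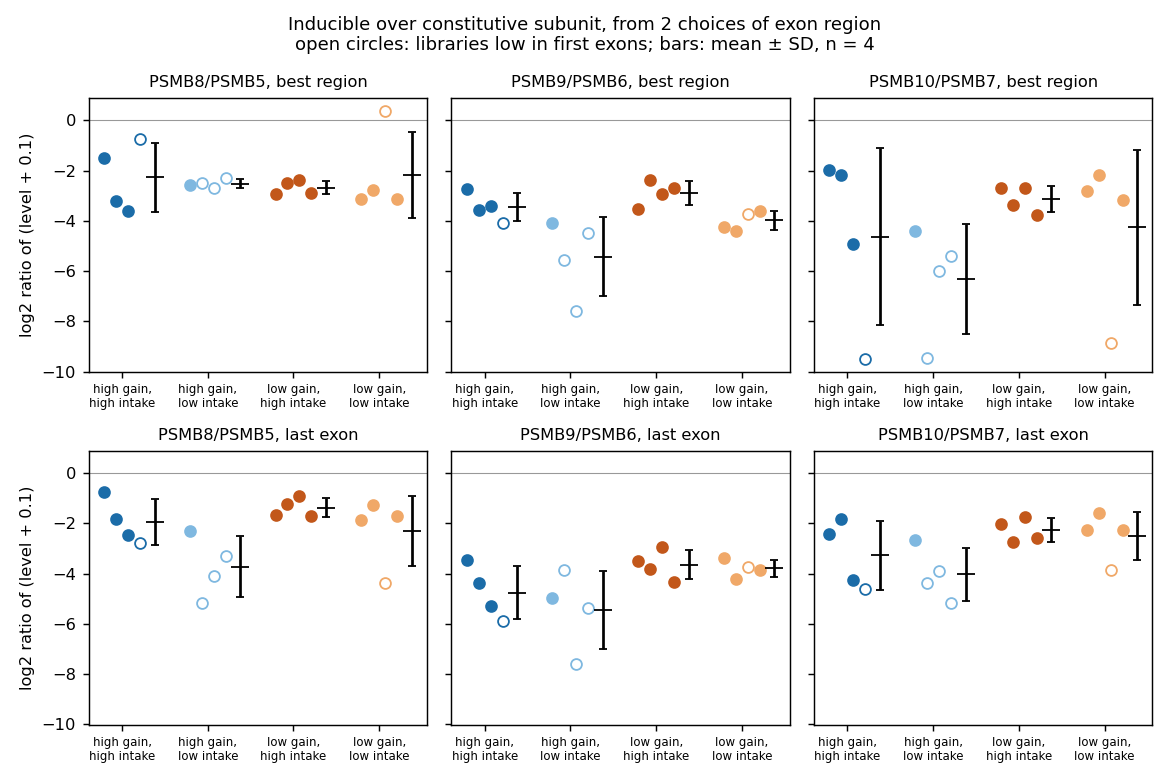
Log2 ratio of each inducible to its constitutive subunit per library, from the region of highest mean (top) and from the last exon (bottom), with mean ± SD (n = 4). For PSMB9 over PSMB6 the high-intake groups lie higher in the top row (difference 1.54), and in the bottom row the difference by intake is 0.42.

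TAP1, the peptide transporter gene that neighbours PSMB8 and PSMB9 and is likewise induced by interferon, gave a comparison across the 11 libraries. Its region (exon 11, chromosome 23, 7117857 to 7118511) lies between those of PSMB8 and PSMB9, and its level was 2.91 to 7.73 with a median of 3.42. Pearson's r of log2 levels with TAP1 was 0.65 for PSMB8 (permutation p = 0.021, Benjamini-Hochberg adjusted over 5 p = 0.105), with Spearman's rho of 0.50 (permutation p = 0.123, adjusted 0.244), and r was 0.51 without the 2 libraries farthest from the TAP1 median. For PSMB10 r was 0.54 (permutation p = 0.077, adjusted 0.129) and rho 0.69 (p = 0.023, adjusted 0.116), with r of 0.73 without those 2 libraries. PSME1 had an r of 0.56 (permutation p = 0.046, adjusted 0.114), with rho of 0.47 (p = 0.146, adjusted 0.244), and 0.34 without the 2. PSMB9 had an r of 0.22 (permutation p = 0.604, adjusted 0.755), a rho of -0.15 (p = 0.656, adjusted 0.656), and -0.36 without the 2. PSME2 had an r of -0.11 (permutation p = 0.778, adjusted 0.778), a rho of 0.22 (p = 0.523, adjusted 0.653), and 0.49 without the 2. None passed after adjustment, and the values for PSMB9 and PSME2 changed sign without the 2 libraries. Over all exon regions r was 0.86 for PSMB8 (permutation test, adjusted p = 0.00390) and 0.54 for PSMB9 (adjusted p = 0.110).

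PSME1, PSME2, PSME4, PSMF1 and PSMG1 to PSMG3 did not pass in any contrast over all libraries without a covariate. PSME1 was among the steadiest members, at 7.04 to 14.33 in all libraries, and its gain estimate was 0.14 ± 0.14. Its partner PSME2 was read from a first exon and was at 0 in 3 of the 5 libraries and at 5.14 to 9.69 in the 11, with a gain estimate of -1.28 ± 1.19. PSME4 had 0.38 ± 0.23 for gain and -0.33 ± 0.23 for intake. PSMF1 was at 0 in 2 of the 5 libraries and at 6.12 to 16.29 in the 11. Among the chaperones, PSMG1 had 0.15 ± 0.24 and PSMG2 0.08 ± 0.21 for gain. PSMG3 had -1.05 ± 0.78 for gain and 1.01 ± 0.78 for intake, and was at 0.35 to 2.72 in the 5 libraries against 6.23 to 12.45 in the 11. PSMC3IP was at 0.50 to 3.40.

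The interaction asks whether the gain difference depends on intake. No gene was called (0%), and every member had an adjusted p of 1.00 (limma). Members with a higher estimate numbered 21 and those with a lower 23 (48.7% of all genes higher), and 0 members had an unadjusted p under 0.05 in either direction (0.148% of all genes higher and 0.371% lower). The smallest p was that of PSMG1, with -0.71 ± 0.47. The other named members were PSMD11 (0.34 ± 0.33), PSME1 (0.26 ± 0.28), PSMD13 (0.82 ± 0.99), PSMD8 (-0.82 ± 1.35) and PSME2 (-1.42 ± 2.38).

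High gain with low intake was also set against low gain/high intake, the quadrants of high and low feed efficiency. This contrast shares its libraries with gain and intake and adds no independent evidence to them. No member passed (limma, adjusted p of at least 0.368) and 0% of genes were called. Members with an unadjusted p under 0.05 numbered 4 higher (4.11% of all genes) and 4 lower (9.35%). After rescaling they numbered 8 and 4, beside 731 higher and 796 lower of all 9443 genes. A higher estimate was found for 25 members (50.4% of all genes), or 27 after rescaling (60.7%). With the first-exon covariate 26 members changed sign in this contrast, and PSMD9 had 0.83. Without rescaling or covariate, the higher ones at an unadjusted p under 0.05 were PSMA5 (0.63 ± 0.25), PSMD5 (0.74 ± 0.31), PSMC2 (0.46 ± 0.20) and PSME4 (0.71 ± 0.33). The lower ones were PSMB9 (-3.18 ± 1.05), PSMB8 (-2.42 ± 0.88), PSMD13 (-1.61 ± 0.70) and PSMD9 (-3.74 ± 1.71). High gain with low intake holds 3 of the 5 libraries and low gain/high intake none, so the split of libraries and this contrast cannot be told apart over all libraries. Without the 5 libraries, high gain/low intake keeps 1 library, which is assumed to vary like those of the other groups, and PSMB9 then had -1.25 ± 0.49 (adjusted p = 0.399). With the first-exon covariate 3 genes passed (0.0318%, all higher), PSMB3 among them (1.93 ± 0.30, adjusted p = 0.0440).

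Other genes of the pathway were read from lists chosen by role, and none of their genes passed the threshold in any of the 4 contrasts. Of 13 genes of ubiquitin activation and shuttling, 9 were lower with high gain and 8 higher with high intake. Of 16 partners of the proteasome outside the PSM symbols, 11 were higher with high gain and 12 lower with high intake. Among the latter was USP14, a deubiquitinase of the 19S cap (-0.67 ± 0.27 for intake, limma, adjusted p = 0.528). ADRM1, a ubiquitin receptor of the cap, had -0.92 ± 0.50 for gain.

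Of 12 regulators of proteasome genes, 8 had lower estimates with high gain. HSF1, the heat shock transcription factor, had -2.83 ± 1.13 (limma, adjusted p = 0.847), and its mean was 0.15 in the 5 libraries and 9.85 in the 11. NFE2L1, which induces proteasome genes when the proteasome is inhibited, had 0.35 ± 0.21 for intake. Of 16 interferon and antigen processing genes, 8 had higher and 8 lower estimates with high intake, with a median of 0.01: TAP1 had 0.51 ± 0.29, while LAP3 had -0.70 ± 0.28, each with an adjusted p of 0.528. Of 14 unfolded protein and heat shock genes, 9 were higher with high intake, and HSPA1A, an inducible heat shock protein, had -1.07 ± 0.46 for gain (adjusted p = 0.847).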

How the data were processed

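Per the labels' protocols, polyadenylated RNA of 16 animals was sequenced in single 50-base reads. TopHat2 2.08b and UMD3.1 were used, per the submitters' processing notes, and no annotation or coverage tool is named there. The values deposited by the authors are a signal, the average coverage per base over a region scaled by a constant for each library, as read from the values. Of 2351373 regions, 510 that hold exons of more than 1 gene were dropped. Each gene kept its exon region of highest mean, and log2(value + 0.1) was fitted with limma 3.58.1 (R 4.3.3, trend and robust) on 4 group means over 16 libraries. Tests are two-sided, with Benjamini-Hochberg adjustment over 9443 genes and a threshold of 0.05. Fold changes on this scale understate the change of low genes. Reads per region were estimated from coverage and not used in tests. The fit for gain was tested on data simulated with the means and spreads of the 11 libraries. The split of the 5 libraries was not part of that simulation. The labels do not pair animals. The limma p-values set a difference against the spread between libraries within groups. With 1 library per animal, that spread holds differences between animals and between libraries, which cannot be told apart.

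Values are given for the 3 members of smallest p per direction and contrast, the catalytic, activator, inhibitor and chaperone genes, and the 3 extremes of mean and SD; of each list at most 4 genes are named. PSMC3, PSMB3, PSMD3 and PSMC5 are described for coverage or role and were chosen after their values were seen. Members, lists and tests were chosen with earlier results of these data known. The alternatives were pseudocounts of 0.5 and 1, other filters, other regions, rescaling, plain limma, a first-exon covariate and left-out libraries; the last-exon region was added after seeing the data. Some list genes are not reported here.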

Additional observations from a re-analysis of the deposited data

Results flagged for a closer look

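In 17 of 108 groups of 4 libraries (27 named members), 1 library stood apart. Its gap to the nearest other, divided by the range of the 4, exceeded Dixon's 95% critical value for 4 samples. Chance flags about 1 group in 20 where groups are not chosen by their values, but part of these members were named by SD or p. Replicate 3 of low gain/low intake accounts for 8 of them: PSMB5 at 0.13 (the others 33.42 to 35.55), PSMB6 at 1.22 (22.92 to 26.96), PSMD8 at 0.93 (32.21 to 38.44), PSMD9 at 0 (12.47 to 14.87), PSMG3 at 0.42 (10.67 to 12.11) and PSMG1 at 16.45 (24.08 to 24.21) were low, and PSMD14 at 70.46 (30.88 to 37.53) and PSMD5 at 26.33 (9.69 to 12.39) were high. Replicate 2 of high gain/low intake gave PSMB6 at 4.59 (18.78 to 20.45), PSMB7 at 70.15 (57.05 to 57.93) and PSMG2 at 9.24 (4.44 to 5.22). Replicate 4 of high gain/high intake gave PSMA2 at 6.18 (2.14 to 2.81). These 3 libraries are among the 5 low in first exons.

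The other 5 come from libraries outside those 5. In low gain/high intake, replicate 3 was high for PSMA7 at 18.86 (13.23 to 13.69) and PSME1 at 9.53 (9 to 9.09). Replicate 4 of that group was low for PSMD8 at 24.81 (36.70 to 38.34) and had PSMB11 at 0.50 where the others were at 0. Replicate 1 of high gain/low intake had PSMB11 at 0.53 where the others were at 0.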

How the results depend on the processing

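No paired analysis was possible because no label ties an animal to one of another group. Without the 5 libraries low in first exons, 61 genes passed for gain (1 member) and 2 for efficiency; with the first-exon covariate 823 (6 members) and 3 (1 member). Leaving out 1 library gave 0 to 57 genes for gain (57 without replicate 3 of low gain/low intake), 0 to 1 for intake (1 without replicate 4 of high gain/high intake) and 0 to 1 for efficiency (1 without replicate 3 of low gain/high intake). Over all exon regions 2 genes passed for intake. Rescaling to 1 median moved the members' median to 0.28 for gain (all genes 0.15, 61.2% higher) and 0.46 for efficiency (all genes 0.33, 60.7% higher). With the covariate 30 of 44 members changed sign for gain, 16 for intake, 5 for the interaction and 26 for efficiency; without the 5 libraries 7, 12, 19 and 6 did. Of the members named by p for a contrast, these changed sign with the covariate, for gain: PSMB9 0.41, PSMD13 0.0706, PSMD5 -0.0391, PSMD9 0.64 (last exon 0.0773), and for efficiency PSMD13 0.0023. In the interaction, leaving out 1 library gave -1.29 to 0.46 for PSMD8 and -2.79 to 0.15 for PSME2, which was 0.0247 without the 5. The PSMB9/PSMB6 difference by intake fell to 0.79 (values + 0.5), 0.70 (all regions) and 0.42 (last exon) and was no longer called, and that by gain was called at -1.25 (all regions) and -1.38 (last exon). PSMB8/PSMB5, near 0, changed sign by gain (all regions -0.63, last exon -1.001, leaving out 1 library -0.20 to 0.44) and by intake (all regions 0.50, without the 5 libraries 0.20, last exon 1.34, leaving out 1 library -0.37 to 0.26). For TAP1, r over all regions was 0.86 for PSMB8 (adjusted p = 0.00390), 0.54 for PSMB9 and 0.46 for PSME2 (permutation tests). The cause was not tested. PSMB9 rests on about 7 reads at the median of the 11 libraries, which limits the precision of its ratio.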
